A study of Mus musculus with 56 samples.

Results

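The chemokine and chemokine receptor genes of the mouse liver were followed here through the loss of miR-122, the main microRNA of hepatocytes. They were taken as every row of the RNA-seq table whose symbol begins with Ccl, Cxcl, Ccr or Cxcr followed directly by a digit. This gave 65 rows for 55 symbols, out of 22308 rows for 21888 symbols, and rows of 1 symbol were summed. Of the 55 symbols, 37 encode ligands (24 of the CC and 13 of the CXC family) and 18 encode receptors (11 CC and 7 CXC). The rule uses names only, and no measured value entered it.

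Chemokines are small secreted proteins that draw leukocytes along a gradient, and their receptors are G protein-coupled receptors carried mainly by those leukocytes. CC ligands act mostly on monocytes, macrophages, dendritic cells and T cells, some CXC ligands on neutrophils, and the interferon-induced CXC ligands on T and NK cells. In liver they are made by Kupffer cells, endothelium, stellate cells, bile duct cells and hepatocytes, and they are known for bringing in monocytes and lymphocytes during injury and fibrosis.

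RNA was measured in 14 livers, 1 library per mouse, all on a 129Sv/J background. The day 0 group held 3 uninjected mice with loxP sites around miR-122. Such floxed mice received Cre recombinase from an adeno-associated vector (rAAV8) through the tail vein, and livers were taken at day 21 and day 45 (3 mice each) and at day 100 and day 200 (1 mouse each, joined in 1 group). The other group held 3 germline miR-122 knockout mice, a line of their own for which the labels give no vector, so line and knockout cannot be told apart. No liver of a mouse given a vector without Cre was used here, so the effects of vector, of Cre and of the loss of miR-122 cannot be told apart either. Cre was driven by the Ef1a promoter, which is active in many cell types, and sex and age are not given in the labels. All comparisons with day 0 share the same 3 control livers.

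The extent of the loss came from 11 small RNA libraries, matched to the floxed livers by the day and replicate letter in their labels. miR-122 made up 73.3, 59.2 and 66.7% of microRNA reads at day 0, 12.5, 13.2 and 8.22% at day 21, 0.908, 0.383 and 1.23% at day 45, 4.46% at day 100 and 19.1% at day 200. For the knockout livers no small RNA library was used, and the Mir122a row of the poly-A table is listed at 0 in all 14 libraries, so it does not check their label. Levels are given as FPKM (fragments per kilobase of transcript, scaled by library), which is a level per length, so members can be compared with each other. From the smallest steps between low values the effective depth was estimated at about 24.4 to 57.4 M fragments (M, mega), with the knockout libraries lowest (24.4, 32.0 and 29.0 M), so 1 fragment on a transcript of 1 kb is worth 0.0212 to 0.05 FPKM. Hepatocyte markers were high in every liver (summed 16537 to 31696 FPKM without Trf and Serpina1c, which are listed at 0 in most livers), but Alb, the albumin gene, is listed at 0 in all 14, so a 0 in this table can be a failed estimate.

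Knockout C stood apart from the other knockout livers. Over all 11354 tested genes its correlation with knockout A and B was 0.881 and 0.895, against 0.986 between A and B, and with the floxed libraries it was 0.927 to 0.955. Knockout A and B also had higher values for short than for long transcripts: the median deviation from the gene's mean was 1.07 and 0.633 higher (log2) for transcripts of at most 1500 bases than for those over 6000 bases, against -0.222 in knockout C and -0.440 to 0.374 in the floxed livers. The tested members have a median transcript length of 1440 bases, against 3028.5 for all tested genes. Calls in the knockout are also given without knockout C, a fit that keeps the 2 libraries with this length trend. With the length trend removed from each library, an alternative added after seeing the data, 16 of the 17 members called in the knockout against day 0 still passed, while 21.3% of all tested genes were higher and 16.3% lower. Ccl20 was lost.

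At day 0 only 15 to 16 of the 55 members reached 1 FPKM in a liver. This number was 26 to 31 at day 21, 27 to 32 at day 45, 32 at both day 100 and day 200, and 23 to 26 in the knockout livers. Over all symbols the number that reached 1 FPKM was 10119 to 10471 at day 0, 10832 to 10908 at day 21, 11249 to 11846 at day 45, 12025 and 11855 at days 100 and 200 and 10605 to 11038 in the knockout. Over the 14 livers, 29 members had a mean of at least 1 FPKM and were tested (22 ligands and 7 receptors). Another 15 had means from 0.1 to 1 FPKM and 8 lower means, and Ccl26, Ccl27b and Ccl28 were listed at 0 throughout.

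Cxcl12, the homeostatic ligand of Cxcr4 and Cxcr7, was by far the most abundant member. It measured 189, 123 and 189 FPKM in the 3 day 0 livers and made up 61.1 to 65.2% of the summed ligand level there. The ligands next in mean level over the 14 livers were Ccl9 (34.1 FPKM), Cxcl9 (26.3 FPKM), Ccl6 (22.9 FPKM), Cxcl16 (22.5 FPKM) and Ccl5 (22.3 FPKM). Among receptors with high means were Ccr2 (4.08 FPKM), Cxcr4 (3.41 FPKM) and Cxcr6 (2.25 FPKM). The 18 receptors together summed to 5.59, 5.63 and 11.4 FPKM at day 0, 23.3, 23.7 and 36.0 at day 21, 29.8, 39.99 and 27.5 at day 45, 50.9 and 50.02 at days 100 and 200 and 16.2, 18.2 and 19.2 in the knockout, so all injected livers lay above all day 0 livers. The ligands other than Cxcl12 summed to 105, 65.4 and 120.0 FPKM at day 0 and to 205, 244 and 240.4 at day 45.

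After the loss of miR-122, ligands and receptors of several branches of the family were higher than at day 0. At day 21 these included the monocyte and T cell attractants Ccl2, Ccl3, Ccl4, Ccl5, Ccl6 and Ccl8, the neutrophil attractant Cxcl1, the interferon-induced Cxcl9 and Cxcl10, and the receptors Ccr2, Ccr7, Cxcr3 and Cxcr6. At day 45 Ccl20, Ccl22, Cxcl12, Cxcl13, Cxcl14, Cxcl16, Cxcr4 and Cxcr7 were also higher, and at days 100 and 200 Ccl17 and Ccl7 as well. Ccl8 did not pass at day 45, nor Ccl8 and Cxcl13 at days 100 and 200. In the knockout Ccl2, Ccl5, Ccl6, Ccl17, Ccl20, Ccl22, Cxcl1, Cxcl10, Cxcl12, Cxcl14, Cxcl16, Ccr2, Ccr7, Cxcr3, Cxcr4 and Cxcr7 were higher. Ccl25 was lower at days 100 and 200 and in the knockout. Whether these calls differ between times was tested only for day 45 against day 21 and for the knockout against day 45.

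Members were compared between groups with limma on log2(FPKM + 1), fitted on all 11354 tested genes, at an adjusted p under 0.05. Differences are log2 fold changes with SE on that scale, which understates the change of low genes. At day 21, 14 of the 29 tested members were higher and 0 lower than at day 0, while 6.2% of all tested genes were higher. At day 45, 21 were higher and 0 lower (23.7% of all tested genes higher). At days 100 and 200 together, 22 were higher and 1 lower (28.4% higher and 3.21% lower over all tested genes), and in the knockout 16 were higher and 1 lower (19.3% higher, 14.5% lower). The median log2 difference of the 29 members was 1.03, 1.24, 1.49 and 0.75 in these comparisons, against 0.061, 0.20, 0.31 and 0.016 over all tested genes.

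A member that is low at day 0 and reached a mean of 1 FPKM did so through the later livers, so such a member had to differ. The 16 tested members with a day 0 mean of at least 1 FPKM are free of that choice. Of these 16, 7 were higher at day 21, 11 at day 45, 10 at days 100 and 200 and 8 in the knockout, and the background among genes chosen in the same way was 5.1%, 18.4%, 22.8% and 15.4%. Over all 29 tested members, those that entered through the later livers included, centring each library on its median left 13 higher at day 21, 14 at day 45, 18 at days 100 and 200 and 16 in the knockout. Of all tested genes 5.19%, 14.5%, 15.7% and 19.1% were higher under the same centring. The members lower were then 1, 2, 1 and 2 (1.68%, 7%, 8.75% and 17.2% of all tested genes lower). Centring lowers the share of higher among all called genes from 88.8% to 67.4% at day 45 and from 89.8% to 64.3% at days 100 and 200.

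The count at day 21 rests on single livers. Without day 0 B, or without day 21 C, it was 4, in both cases Ccl3, Ccl4, Ccl8 and Cxcl9. The share of all tested genes that were higher fell as well, to 1.74% and 1.78%. Day 21 C was the highest of its group for 13 of the 14 members called at day 21, and it also had the highest summed neutrophil markers of its group (143 FPKM, against 47.7 and 45.6) and T and NK cell markers (74.8, against 49.7 and 40.1), whose part in the result was not tested. At day 45 the count was 14 without day 0 B and 14 without day 45 B (16.9% and 14.4% of all tested genes higher), and the same 7 members (Ccl20, Cxcl1, Cxcl12, Cxcl13, Cxcl14, Cxcr6 and Cxcr7) were lost in both cases, while the other 14 calls held whichever library was left out. At days 100 and 200 it fell from 23 to 14 without the day 100 liver (13.7% of all tested genes higher). Of the 23 calls, 13 held whichever library was left out, those of Ccl2, Ccl17, Ccl20, Ccl22, Ccr2, Ccr7, Cxcl1, Cxcl14, Cxcl16, Cxcr3, Cxcr4, Cxcr6 and Cxcr7. Some members whose calls held, in the floxed livers or in the knockout, had day 0 means under 1 FPKM. They were Ccl3, Ccl4, Ccl8, Ccl17, Ccl20, Ccl22, Ccr2, Ccr7, Cxcr3, Cxcr4, Cxcr6 and Cxcr7. These were tested because of the later livers, so a call of theirs that held supports nothing. In the knockout 7 of the 17 calls held whichever library was left out, those of Ccl17, Ccl22, Ccl25, Cxcl1, Cxcl14, Cxcl16 and Cxcr4. The count there was 16 without knockout C, 11 without A, 9 without B and 9 without day 0 B, and 3 with knockout C as the only knockout liver (Ccl20, Ccr2 and Cxcl1). The shares of all tested genes higher in these 5 fits were 31.7%, 11.8%, 9.47%, 11.8% and 4.03%.

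Without knockout C, 15 of the 17 members called in the knockout against day 0 still passed, while 31.7% of all tested genes were higher and 30.7% lower in that fit. Those lost were Ccl20 (limma adjusted p = 0.101) and Cxcl12 (limma adjusted p = 0.052). The log2 differences without knockout C were 2.85 for Ccl5, 1.33 for Ccl6, 2.47 for Ccl17, 1.39 for Ccl22, 2.09 for Cxcl10, 3.72 for Cxcl14, 2.21 for Cxcl16, 1.08 for Cxcr3, 2.11 for Cxcr4, 0.86 for Ccr7 and 0.72 for Cxcr7, and -1.16 for Ccl25, all further from 0 than with it. They were 1.51 for Ccl2, 1.94 for Cxcl1 and 0.71 for Ccr2, nearer to 0 than with it.

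**Figure D1:**
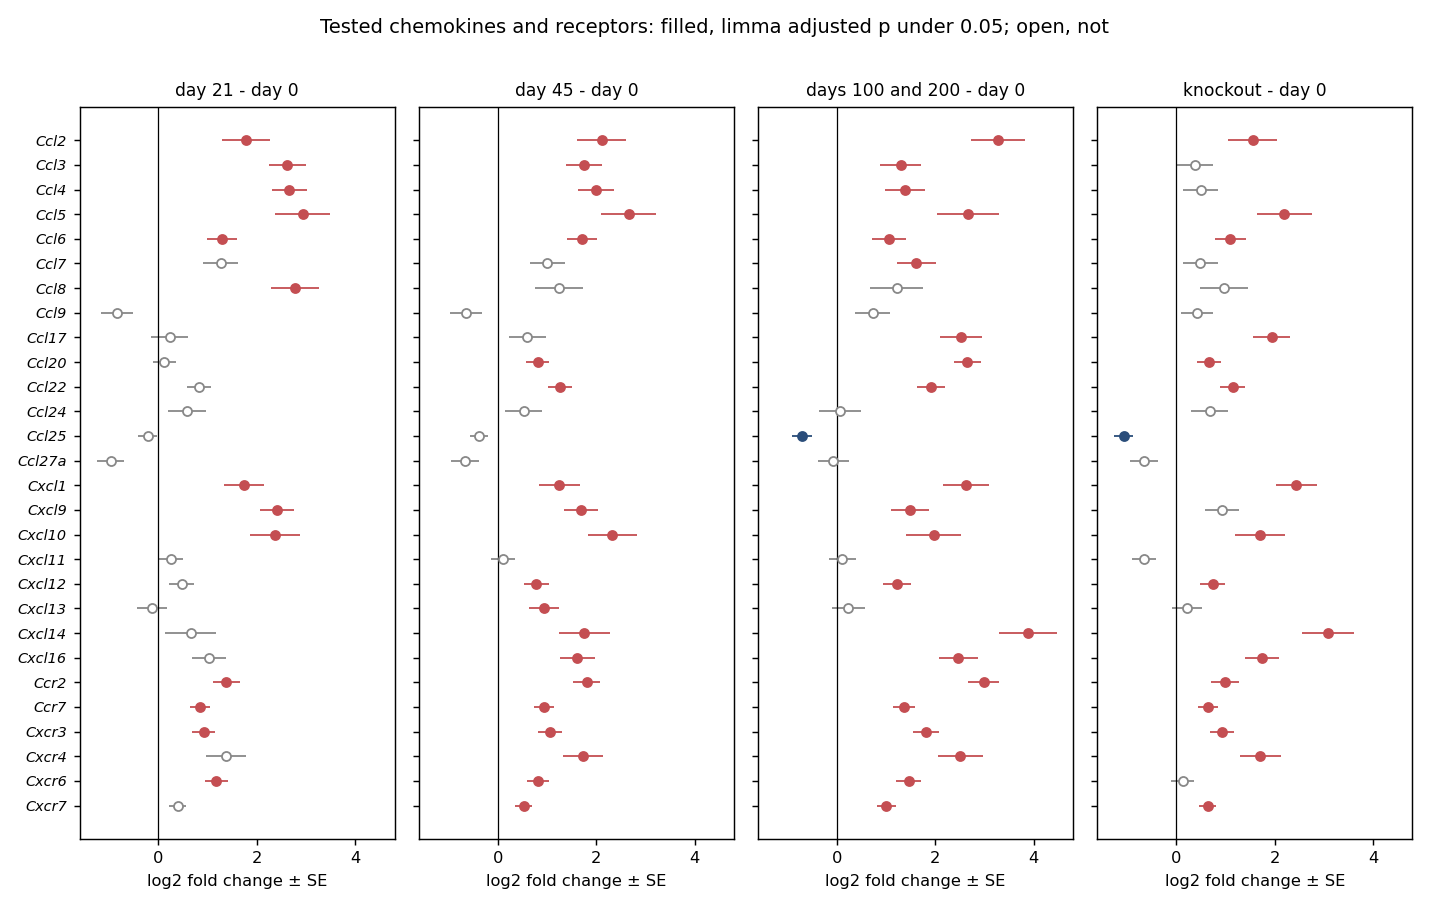
Log2 fold change ± SE of tested members against day 0, on the log2(FPKM + 1) scale, in 4 panels, for day 21, for day 45, for the joined days 100 and 200, and for the knockout. Filled points passed an adjusted p of 0.05 in limma (red higher, blue lower) and open points did not. Ccl25 is the member called lower, at days 100 and 200 and in the knockout.

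The interferon-induced ligands Cxcl9, Cxcl10 and Cxcl11 share the receptor Cxcr3, which effector T cells and NK cells carry. Cxcl9 measured 6.43, 4.77 and 17.8 FPKM in the day 0 livers and 38.0, 44.3 and 67.9 at day 21. The groups did not overlap (log2 fold change 2.41 ± 0.35 SE, limma adjusted p = 0.00362). At day 45 it was 31.2, 25.4 and 31.1 (log2 fold change 1.69 ± 0.35 SE, limma adjusted p = 0.00395), and at days 100 and 200 it was 26.7 and 23.7 (log2 fold change 1.49 ± 0.39 SE, limma adjusted p = 0.0115). In the knockout Cxcl9 was 17.9, 16.6 and 16.0, of which 1 lay above the highest day 0 liver, and the difference did not pass (log2 fold change 0.93 ± 0.35 SE, limma adjusted p = 0.0555).

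Cxcl10 was 5.09, 2.09 and 6.71 FPKM at day 0, 15.7, 24.2 and 46.4 at day 21 (log2 fold change 2.37 ± 0.50 SE, limma adjusted p = 0.015) and 19.4, 28.6 and 29.7 at day 45 (log2 fold change 2.33 ± 0.50 SE, limma adjusted p = 0.00507). It was 33.4 and 11.3 at days 100 and 200 (log2 fold change 1.97 ± 0.56 SE, limma adjusted p = 0.0179). With each library left out in turn that difference ranged from 1.23 to 2.71, and it did not pass without the day 100 liver or without day 0 B. Cxcl10 was 17.3, 26.6 and 8.93 in the knockout (log2 fold change 1.70 ± 0.50 SE, limma adjusted p = 0.023). Every injected and knockout liver was above the highest day 0 liver. Cxcl11, the third ligand of the set, stayed between 0.406 and 2.24 FPKM and was called in no comparison. Its day 45 value was 1.73, 1.96 and 0.769 (log2 fold change 0.11 ± 0.24 SE, limma adjusted p = 0.801). The knockout livers were at 0.463, 0.448 and 0.406, below every day 0 liver, without passing (log2 fold change -0.64 ± 0.24 SE, limma adjusted p = 0.0595), and it passed as lower there with libraries centred on their median (limma adjusted p = 0.0464) and without day 0 B (limma adjusted p = 0.0358). The rows of Cxcl10 and Cxcl11 overlap Art3 on the map, and the strand setting of the counting is not stated, so reads of overlapping genes cannot be told apart.

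Cxcr3 itself rose from 0.273, 0.333 and 0.876 FPKM at day 0 to 1.59, 1.18 and 2.82 at day 21 (log2 fold change 0.92 ± 0.24 SE, limma adjusted p = 0.0342) and 2.00, 2.62 and 1.68 at day 45 (log2 fold change 1.07 ± 0.24 SE, limma adjusted p = 0.00587). It was 3.49 and 4.88 at days 100 and 200 (log2 fold change 1.80 ± 0.26 SE, limma adjusted p = 0.000425) and 1.97, 2.27 and 1.30 in the knockout (log2 fold change 0.94 ± 0.24 SE, limma adjusted p = 0.0117). The groups did not overlap with day 0 in any of these comparisons. In bulk liver RNA, more cells that carry a gene and more RNA of it per cell cannot be told apart. The 13 tested T and NK cell markers included 11 that were higher at day 21, 10 at day 45, 10 at days 100 and 200 and 7 in the knockout, and their summed level was 5.66 to 11.9 FPKM at day 0, 40.1 to 74.8 at day 21, 26.6 to 39.3 at day 45, 33.9 to 48.5 at days 100 and 200 and 15.7 to 37.6 in the knockout. Their part in the result was not tested. As with the members, a marker with a day 0 mean under 1 FPKM was tested only because later livers raised its mean, so counts of tested markers that were higher support nothing. Such markers were 10 of the 13 tested for T and NK cells, 3 of 4 for B cells, 4 of 6 for neutrophils, 3 of 5 for dendritic cells, 4 of 12 for monocytes and macrophages, 2 of 6 for cholangiocytes, 1 of 10 for stellate cells and fibroblasts and 1 of 8 for endothelium.

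The promoters of the CXC ligands that rose at day 21 are shown for the short sequences they share, with those of Cxcl2, the chromosomal neighbour of Cxcl1. They are the 250 bases before the RefSeq start in build GRCm38.p6, 5′ to 3′ on the gene's strand. Capitals mark matches on either strand to GGGANNTTC, a pattern of the NF-κB type, and to AAANNGAAA, the core of interferon-stimulated response elements.
Cxcl1, chr5:90890995-90891244, plus strand: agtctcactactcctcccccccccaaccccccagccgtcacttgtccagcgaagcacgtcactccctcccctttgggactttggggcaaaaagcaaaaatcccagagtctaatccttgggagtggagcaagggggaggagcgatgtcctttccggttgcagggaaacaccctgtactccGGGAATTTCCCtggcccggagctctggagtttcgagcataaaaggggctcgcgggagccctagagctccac
Cxcl2, chr5:90903649-90903898, plus strand: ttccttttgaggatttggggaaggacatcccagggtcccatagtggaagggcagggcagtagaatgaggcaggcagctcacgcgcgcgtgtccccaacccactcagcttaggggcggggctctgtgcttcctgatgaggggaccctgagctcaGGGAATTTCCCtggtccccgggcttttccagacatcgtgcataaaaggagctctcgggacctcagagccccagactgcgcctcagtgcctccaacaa
Cxcl9, chr5:92328080-92328329, minus strand: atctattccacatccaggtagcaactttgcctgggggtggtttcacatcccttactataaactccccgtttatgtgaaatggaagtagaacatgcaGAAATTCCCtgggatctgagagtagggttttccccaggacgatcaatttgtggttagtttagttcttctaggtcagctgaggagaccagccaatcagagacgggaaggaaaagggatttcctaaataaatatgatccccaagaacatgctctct
Cxcl10, chr5:92348890-92349139, minus strand: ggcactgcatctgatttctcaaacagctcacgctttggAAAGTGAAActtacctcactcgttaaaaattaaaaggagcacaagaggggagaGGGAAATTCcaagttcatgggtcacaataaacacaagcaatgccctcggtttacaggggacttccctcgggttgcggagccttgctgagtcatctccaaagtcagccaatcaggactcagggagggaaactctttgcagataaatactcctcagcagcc
In Cxcl1 and in Cxcl2 the capitals are 1 near-palindromic stretch that matches the first pattern on both strands, with its first base 71 and 97 bases before the start. In Cxcl9 the match begins 154 bases before the start. Cxcl10 holds the second pattern, beginning 212 bases before the start, and then the first, beginning 159 before it. Of the 38 members with an entry in the table, 8 hold the first pattern (21.1%, against 3.23% of 32851 promoters of the same length) and 5 the second (13.2%, against 9.37%). Of the 9 that were higher at day 21 and have an entry, 3 hold the first and 1 the second. Ccl2, Ccl4, Ccl5, Ccr7 and Cxcl16 have no entry. A match is a description of letters and was not tied to binding of any factor.

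**Figure D2:**
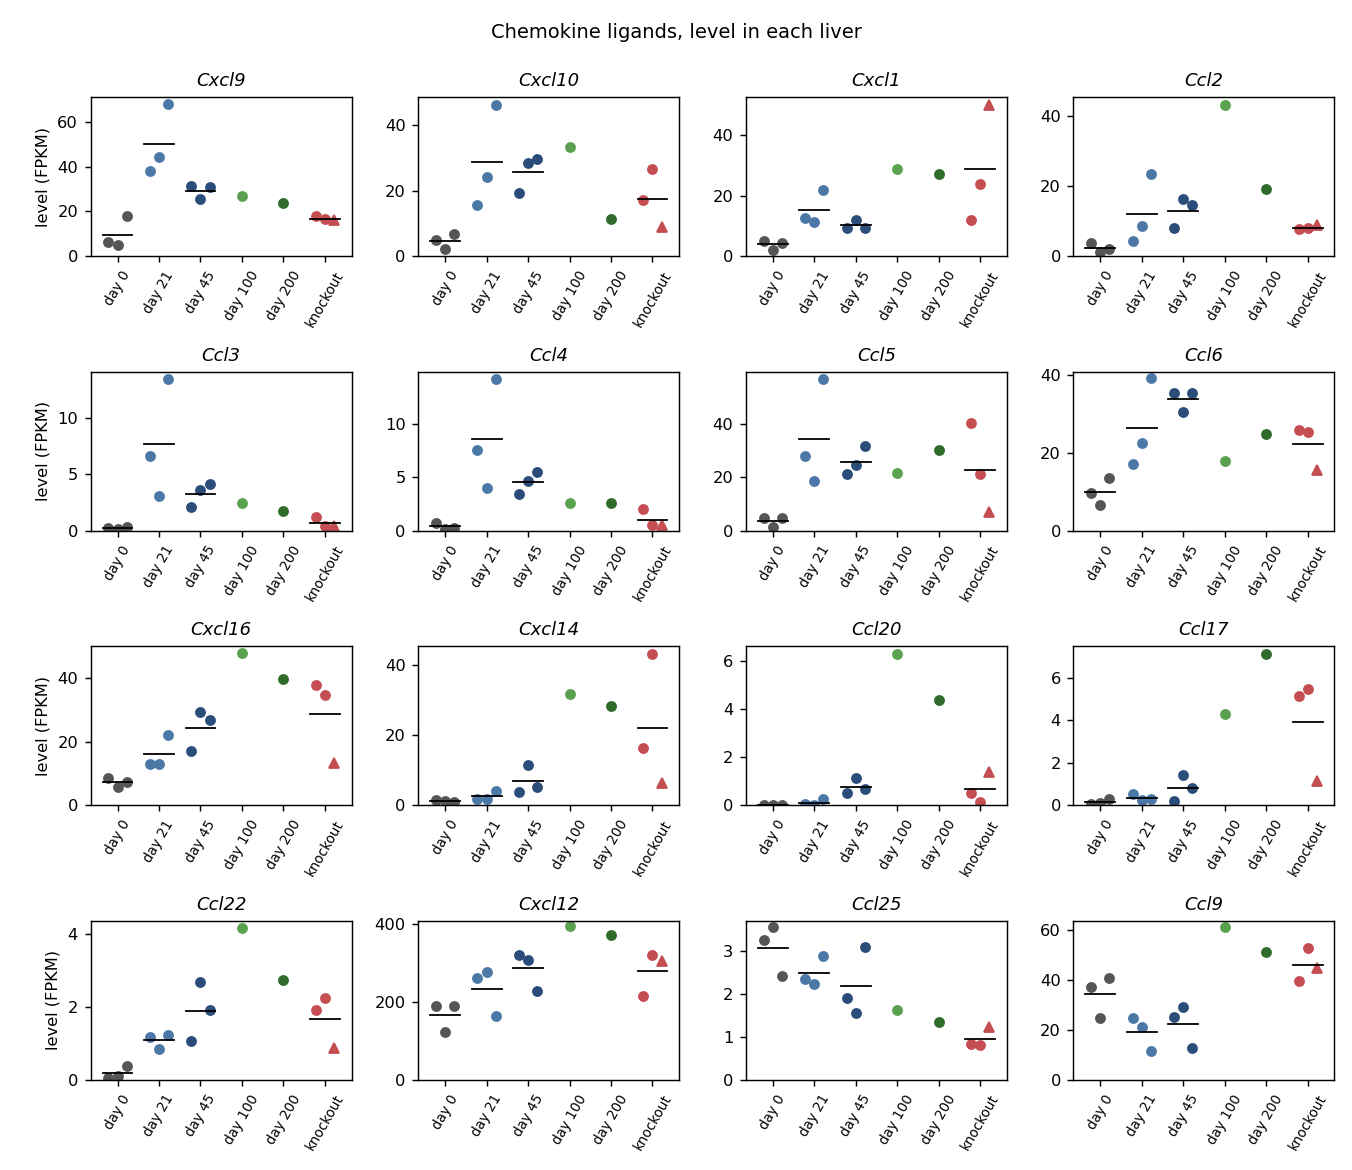
Level (FPKM, axis from 0) of 16 ligands in each of the 14 livers. Points are single livers, horizontal lines are means of 3 livers, and the triangle is knockout C. Cxcl9, Ccl3 and Ccl4 have their highest group mean at day 21, while Cxcl14, Cxcl16, Ccl20 and Ccl17 are higher at day 100 and day 200 than in any day 21 or day 45 liver.

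Ccl2, Ccl7 and Ccl12 attract monocytes through Ccr2, the receptor of inflammatory monocytes. Ccl2 was 3.71, 1.08 and 2.02 FPKM at day 0 and 4.22, 8.50 and 23.3 at day 21, where it passed narrowly (log2 fold change 1.78 ± 0.49 SE, limma adjusted p = 0.0466) and passed in only 2 of the 14 fits that leave out a library. At day 45 it was 7.98, 16.2 and 14.4 (log2 fold change 2.11 ± 0.49 SE, limma adjusted p = 0.00773), at days 100 and 200 it was 43.1 and 19.3 (log2 fold change 3.27 ± 0.55 SE, limma adjusted p = 0.000894), and in the knockout 7.75, 7.90 and 8.75 (log2 fold change 1.56 ± 0.49 SE, limma adjusted p = 0.03). All later livers were above all day 0 livers, and the day 100 liver was the highest.

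Ccl7 lay between 0.130 and 0.326 FPKM at day 0 and reached 4.18 and 1.76 at days 100 and 200 (log2 fold change 1.62 ± 0.40 SE, limma adjusted p = 0.00853). At day 21 it was 1.03, 1.44 and 4.25 and at day 45 1.24, 1.30 and 1.97, and neither passed (limma adjusted p = 0.051 and 0.0544). Both passed with the length trend removed (limma adjusted p = 0.0117 and 0.0156), without knockout A (0.0366 and 0.0391) and without knockout C (0.0261 and 0.0354). Without knockout C, Ccl22, Cxcl16 and Cxcr4 passed at day 21 as well (limma adjusted p = 0.0197, 0.0131 and 0.0202). Ccl12 had a mean under 1 FPKM and was not tested; it was 0.0450, 0.0510 and 0.05 at day 0 and 0.629, 1.25 and 0.813 at day 45. Ccl8, a ligand of Ccr8 in the mouse and a neighbour of these genes, was 0.512, 0.370 and 0.417 at day 0 and 5.77, 5.24 and 21.1 at day 21 (log2 fold change 2.77 ± 0.49 SE, limma adjusted p = 0.00688). It was 2.97, 1.16 and 3.56 at day 45 (log2 fold change 1.24 ± 0.49 SE, limma adjusted p = 0.0794), with no overlap with day 0 but without passing the threshold. Ccl8 passed there with the length trend removed (limma adjusted p = 0.016) and without day 21 C (limma adjusted p = 0.0292). It also passed at days 100 and 200 in these 2 fits (limma adjusted p = 0.0267 and 0.0449).

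Ccr2 measured 0.481, 0.519 and 0.875 FPKM at day 0, 2.63, 2.71 and 4.53 at day 21 (log2 fold change 1.38 ± 0.28 SE, limma adjusted p = 0.0128) and 3.55, 6.68 and 4.17 at day 45 (log2 fold change 1.81 ± 0.28 SE, limma adjusted p = 0.00104). It reached 14.3 and 9.63 at days 100 and 200 (log2 fold change 2.98 ± 0.31 SE, limma adjusted p = 7.58e-05), and was 1.45, 1.86 and 3.75 in the knockout (log2 fold change 0.99 ± 0.28 SE, limma adjusted p = 0.0189). No later liver overlapped with day 0, and the 2 livers of days 100 and 200 were higher than every other liver. All 12 tested monocyte and macrophage markers were higher at day 45, with 3 at day 21, 9 at days 100 and 200 and 8 in the knockout, and their summed level was 170.0 to 294 FPKM at day 0, 427 to 583 at day 21, 611 to 729 at day 45, 813 to 961 at days 100 and 200 and 238 to 684 in the knockout. In knockout C the sum (238 FPKM) lay within the day 0 range while Ccr2 was 3.75 FPKM there, the highest of the 3 knockout livers. Ccr2 has a long transcript, of 5361 bases. For transcripts over 6000 bases the median deviation from the gene's mean was -0.658, -0.384 and 0.042 in knockout A, B and C. The part of monocytes and macrophages in the result, and that of the length trend in the order of the knockout livers, were not tested.

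Ccl3, Ccl4 and Ccl5 are inflammatory CC ligands that attract T cells, NK cells and macrophages. Ccl3 rose from 0.265, 0.171 and 0.302 FPKM at day 0 to 6.59, 3.10 and 13.4 at day 21 (log2 fold change 2.62 ± 0.37 SE, limma adjusted p = 0.00334). It was 2.10, 3.62 and 4.13 at day 45 (log2 fold change 1.75 ± 0.37 SE, limma adjusted p = 0.00435) and 2.43 and 1.72 at days 100 and 200 (log2 fold change 1.29 ± 0.41 SE, limma adjusted p = 0.0295). With libraries centred on their median the calls of Ccl3, Ccl4, Ccl6 and Cxcl9 at days 100 and 200 were lost, and that of Ccl3 also without either late liver or any 1 day 0 liver. In the knockout it was 1.21, 0.418 and 0.375, all above day 0, but the difference did not pass (log2 fold change 0.39 ± 0.37 SE, limma adjusted p = 0.419).

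Ccl4, the chromosomal neighbour of Ccl3, had the same order of groups. It was 0.722, 0.165 and 0.289 FPKM at day 0, 7.58, 3.98 and 14.2 at day 21 (log2 fold change 2.66 ± 0.36 SE, limma adjusted p = 0.00334), 3.46, 4.63 and 5.52 at day 45 (log2 fold change 2.00 ± 0.36 SE, limma adjusted p = 0.00207) and 2.58 and 2.56 at days 100 and 200 (log2 fold change 1.38 ± 0.40 SE, limma adjusted p = 0.0201). The knockout livers were at 2.00, 0.575 and 0.549, 1 above and 2 within the day 0 range (log2 fold change 0.50 ± 0.36 SE, limma adjusted p = 0.284).

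Ccl5, which T and NK cells make, had the largest difference of the tested members at day 21 on the log2(FPKM + 1) scale, while by the ratio of group means it rose 9.66-fold, less than Ccl3 (31.3-fold), Ccl8 (24.7-fold) and Ccl4 (21.9-fold). The ratios of Ccl3, Ccl8 and Ccl4 rest on day 0 values of about 4.3 to 19.9 fragments. For each of them day 21 C was the highest of its group, so these ratios are uncertain. Ccl5 was 4.79, 1.25 and 4.66 FPKM at day 0, 27.9, 18.7 and 56.8 at day 21 (log2 fold change 2.93 ± 0.56 SE, limma adjusted p = 0.00981) and 21.3, 24.8 and 31.6 at day 45 (log2 fold change 2.66 ± 0.56 SE, limma adjusted p = 0.00439). At days 100 and 200 it was 21.6 and 30.3 (log2 fold change 2.67 ± 0.62 SE, limma adjusted p = 0.0063). The knockout livers had 40.2, 21.1 and 6.88 (log2 fold change 2.20 ± 0.56 SE, limma adjusted p = 0.012), above day 0 in every liver, with knockout C lowest; this call was lost without knockout A or without B.

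Ccr1, which binds Ccl3, Ccl5, Ccl6 and Ccl9 on myeloid cells, had a mean under 1 FPKM and was not tested. Its values were 0.0260, 0.0670 and 0.109 at day 0, 0.614, 0.665 and 1.99 at day 21, 0.806, 1.66 and 1.10 at day 45, 2.81 and 2.30 at days 100 and 200 and 0.333, 0.434 and 0.559 in the knockout, so no later liver overlapped with day 0.

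Ccl6 and Ccl9 are myeloid ligands whose genes are neighbours. Ccl6 was 9.63, 6.66 and 13.5 FPKM at day 0, 17.2, 22.6 and 39.3 at day 21 (log2 fold change 1.29 ± 0.31 SE, limma adjusted p = 0.0253) and 35.4, 30.6 and 35.4 at day 45 (log2 fold change 1.72 ± 0.31 SE, limma adjusted p = 0.00199). It was 17.9 and 25.0 at days 100 and 200 (log2 fold change 1.07 ± 0.34 SE, limma adjusted p = 0.0314) and 25.9, 25.3 and 15.7 in the knockout (log2 fold change 1.11 ± 0.31 SE, limma adjusted p = 0.0178). The Ccl6 row overlaps E230016K23Rik on the map. Ccl9, already among the most abundant ligands at day 0 with 37.0, 24.8 and 40.9 FPKM, was 24.6, 21.2 and 11.3 at day 21 (log2 fold change -0.85 ± 0.32 SE, limma adjusted p = 0.141), 25.0, 29.1 and 12.6 at day 45 and 61.3 and 51.3 at days 100 and 200 (log2 fold change 0.73 ± 0.36 SE, limma adjusted p = 0.153). All 3 day 21 livers lay below all day 0 livers, and both late livers above them. In the knockout Ccl9 was 39.7, 52.8 and 45.0, above every day 45 liver (log2 fold change against day 45 1.08 ± 0.32 SE, limma adjusted p = 0.053). It was called in no comparison of the reported fit, but the knockout passed as higher than day 45 without day 21 C, without knockout C, with centred libraries and with the length trend removed (limma adjusted p = 0.0452, 0.0269, 0.0418 and 0.0493).

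Cxcl1, Cxcl2, Cxcl3 and Cxcl5 attract neutrophils through Cxcr2. Cxcl1 was 5.17, 2.17 and 4.32 FPKM at day 0, 12.6, 11.4 and 21.8 at day 21 (log2 fold change 1.73 ± 0.41 SE, limma adjusted p = 0.0253) and 9.23, 12.1 and 9.49 at day 45 (log2 fold change 1.25 ± 0.41 SE, limma adjusted p = 0.0402). At days 100 and 200 it was 28.8 and 27.2 (log2 fold change 2.63 ± 0.46 SE, limma adjusted p = 0.00115), and in the knockout 12.1, 23.9 and 50.2 (log2 fold change 2.44 ± 0.41 SE, limma adjusted p = 0.00159). No later liver overlapped with day 0, and knockout C was the highest of all 14. The day 45 call was lost with the length trend removed from each library (limma adjusted p = 0.0525), and held in 5 of the 14 fits that leave out a library.

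Cxcl2 was too low to be tested, at 0.126, 0.0520 and 0.0770 FPKM at day 0, 0.336, 0.378 and 2.88 at day 21 and 0.738, 0.806 and 1.85 at day 45. Cxcl5 stayed at or under 1.01 FPKM and Cxcl3 at or under 0.0980. Cxcr2 was 0.0350, 0.0280 and 0.117 at day 0, 0.401, 0.403 and 1.07 at day 21, 0.394, 0.760 and 0.730 at day 45, 0.938 and 1.15 at days 100 and 200 and 0.641, 0.494 and 0.441 in the knockout, with no later liver overlapping with day 0. Cxcr1 stayed at or under 0.0980 FPKM. Of the 6 tested neutrophil markers, 3 were higher at day 21, 3 at day 45, 4 at days 100 and 200 and 6 in the knockout. Their summed level was 5.09 to 20.4 FPKM at day 0, 45.6 to 143 at day 21, 46.3 to 87.6 at day 45, 111 to 199.9 at days 100 and 200 and 33.7 to 185 in the knockout, and it was 185, 155 and 33.7 FPKM in knockout A, B and C, an order unlike that of Cxcl1. Their part in the result was not tested.

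In a further set of ligands both livers of days 100 and 200 lay above every day 21 and day 45 liver, a difference that was not tested. Cxcl16 is a membrane-bound ligand of Cxcr6, Cxcl14 a homeostatic chemokine, and Ccl20 a ligand of Ccr6 made by epithelia. Cxcl16 was 8.54, 5.56 and 7.39 FPKM at day 0, 12.9, 12.9 and 22.0 at day 21 (log2 fold change 1.03 ± 0.35 SE, limma adjusted p = 0.104), 17.0, 29.2 and 26.8 at day 45 (log2 fold change 1.61 ± 0.35 SE, limma adjusted p = 0.00557) and 47.9 and 39.6 at days 100 and 200 (log2 fold change 2.46 ± 0.40 SE, limma adjusted p = 0.000671). In the knockout it was 37.7, 34.8 and 13.3 (log2 fold change 1.75 ± 0.35 SE, limma adjusted p = 0.00422). No later liver overlapped with day 0, and the row overlaps Zmynd15 on the map.

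Cxcl14 had the largest difference of the tested members at days 100 and 200 on the log2(FPKM + 1) scale, while by the ratio of group means (26.8) it stood below Ccl17 (38.3), and Ccl20 was listed at 0 at day 0. The ratio of Ccl17 rests on day 0 values of about 0.9, 1.8 and 5.0 fragments and is uncertain. Cxcl14 was 1.41, 1.07 and 0.896 FPKM at day 0, 1.66, 1.82 and 3.92 at day 21 (log2 fold change 0.66 ± 0.52 SE, limma adjusted p = 0.536), 3.75, 11.5 and 5.20 at day 45 (log2 fold change 1.76 ± 0.52 SE, limma adjusted p = 0.0252) and 31.7 and 28.4 at days 100 and 200 (log2 fold change 3.88 ± 0.58 SE, limma adjusted p = 0.000497). In the knockout it was 16.4, 43.3 and 6.45 (log2 fold change 3.08 ± 0.52 SE, limma adjusted p = 0.00164). All knockout livers were above all day 0 and day 21 livers.

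Ccl20 was listed at 0 in all 3 day 0 livers and was 0.505, 1.13 and 0.683 FPKM at day 45 (limma adjusted p = 0.0236). It reached 6.32 and 4.41 at days 100 and 200 (limma adjusted p = 6.83e-05) and was 0.496, 0.146 and 1.36 in the knockout (limma adjusted p = 0.0453), and no fold is given against a group listed at 0. The call in the knockout was lost in 12 of the 14 fits that leave out a library, and with the length trend removed (limma adjusted p = 0.187). Its receptor Ccr6 was not tested and stayed at or under 0.598 FPKM.

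Bile duct markers were read in the same livers, and within the knockout their order was not that of Ccl20. Divided by the day 0 mean, the markers without Spp1 were 13.0, 18.5 and 4.74 in knockout A, B and C. Ccl20 was 0.496, 0.146 and 1.36 FPKM in these livers. Cxcl14 and Cxcl16 were lowest in knockout C, as the markers were. All 6 tested cholangiocyte markers were higher at day 45, at days 100 and 200 and in the knockout, and 2 were at day 21. Their summed level was 46.5 to 59.9 FPKM at day 0, 139 to 205 at day 21, 409 to 1344 at day 45, 1935 to 2935 at days 100 and 200 and 557 to 824 in the knockout. Spp1, which other cells also make, was 87.8 to 97.7% of these sums, and the markers other than Spp1 summed to 4.06 to 5.68 FPKM at day 0, 8.46 to 9.77 at day 21, 26.5 to 85.1 at day 45, 68.8 to 80.2 at days 100 and 200 and 23.7 to 92.7 in the knockout. Of the 10 tested stellate cell and fibroblast markers, 2 were higher at day 21, 9 at day 45, 10 at days 100 and 200 and 6 in the knockout, with sums of 146 to 199 FPKM at day 0, 307 to 323 at day 21, 405 to 676 at day 45, 668 to 678 at days 100 and 200 and 217 to 331 in the knockout. The part of these cells in the levels of Cxcl14, Cxcl16 and Ccl20 was not tested.

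Ccl17 and Ccl22 are ligands of Ccr4 made by dendritic cells and macrophages. Ccl17 was 0.0460, 0.101 and 0.3 FPKM at day 0 and 0.191, 1.44 and 0.811 at day 45 (log2 fold change 0.60 ± 0.38 SE, limma adjusted p = 0.286), 2 of the 3 above day 0. It was 4.30 and 7.13 at days 100 and 200 (log2 fold change 2.52 ± 0.43 SE, limma adjusted p = 0.000897) and 5.16, 5.49 and 1.12 in the knockout (log2 fold change 1.94 ± 0.38 SE, limma adjusted p = 0.00357). Ccl22 was 0.0510, 0.0950 and 0.383 at day 0, 1.16, 0.826 and 1.23 at day 21 (log2 fold change 0.82 ± 0.25 SE, limma adjusted p = 0.0658), 1.06, 2.67 and 1.92 at day 45 (log2 fold change 1.26 ± 0.25 SE, limma adjusted p = 0.00321), 4.15 and 2.74 at days 100 and 200 (log2 fold change 1.91 ± 0.28 SE, limma adjusted p = 0.000415) and 1.90, 2.23 and 0.862 in the knockout (log2 fold change 1.15 ± 0.25 SE, limma adjusted p = 0.00581). No later liver overlapped with day 0 for Ccl22. In both, knockout C was the lowest knockout liver, and Ccr4 stayed at or under 0.178 FPKM. Of the 5 tested dendritic cell markers, 3 were higher at day 21, 3 at day 45, 4 at days 100 and 200 and 2 in the knockout, and their sum was 181 to 241 FPKM at day 0, 199 to 274 at day 21, 205 to 333 at day 45, 206 to 242 at days 100 and 200 and 99.4 to 250.5 in the knockout. Bst2 was 90.2 to 99% of it, and the other markers summed to 2.50 to 4.24 FPKM at day 0, 8.61 to 11.2 at day 21, 8.02 to 14.2 at day 45, 19.9 to 20.1 at days 100 and 200 and 5.93 to 10.9 in the knockout. Their part in the levels of Ccl17 and Ccl22 was not tested.

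Cxcl12, the most abundant member, differed from day 0 by at most 1.22 on the log2 scale. It was 260.4, 276 and 162 FPKM at day 21 (log2 fold change 0.47 ± 0.25 SE, limma adjusted p = 0.318) and 320.0, 307 and 228 at day 45 (log2 fold change 0.78 ± 0.25 SE, limma adjusted p = 0.038), where no liver overlapped with day 0. It was 394 and 371 at days 100 and 200 (log2 fold change 1.22 ± 0.28 SE, limma adjusted p = 0.00607) and 214, 321 and 304 in the knockout (log2 fold change 0.75 ± 0.25 SE, limma adjusted p = 0.0397). The calls at day 45 and in the knockout each held in 7 of the 14 fits that leave out a library, and that at day 45 was lost with libraries centred on their median. Endothelial markers, of which 8 were tested, had 2 higher at day 21, 3 at day 45, 3 at days 100 and 200 and 2 lower in the knockout, with sums of 90.3 to 156 FPKM at day 0, 156 to 177 at day 21, 187 to 190.4 at day 45, 171 to 182 at days 100 and 200 and 76.1 to 86.0 in the knockout. Their part in the level of Cxcl12 was not tested.

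Cxcr4, the receptor of Cxcl12 on leukocytes and their precursors, was 0.296, 0.324 and 0.607 FPKM at day 0, 1.09, 2.11 and 6.31 at day 21 (log2 fold change 1.37 ± 0.41 SE, limma adjusted p = 0.0642), 2.71, 4.55 and 3.96 at day 45 (log2 fold change 1.74 ± 0.41 SE, limma adjusted p = 0.00823) and 6.23 and 7.79 at days 100 and 200 (log2 fold change 2.51 ± 0.46 SE, limma adjusted p = 0.00146). In the knockout it was 5.12, 4.99 and 1.64 (log2 fold change 1.71 ± 0.41 SE, limma adjusted p = 0.00933). No later liver overlapped with day 0. Cxcr7, the scavenging receptor of the same ligand, rose from 0.934, 0.464 and 0.663 at day 0 to 1.54, 1.73 and 1.06 at day 45 (log2 fold change 0.54 ± 0.17 SE, limma adjusted p = 0.0371) and 2.73 and 2.03 at days 100 and 200 (log2 fold change 1.00 ± 0.19 SE, limma adjusted p = 0.00199). It was 1.38, 2.18 and 1.40 in the knockout (log2 fold change 0.65 ± 0.17 SE, limma adjusted p = 0.0149).

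Cxcr6, carried by liver-resident T and NKT cells, was 0.625, 0.511 and 1.72 FPKM at day 0, 3.03, 2.73 and 4.07 at day 21 (log2 fold change 1.17 ± 0.23 SE, limma adjusted p = 0.0118), 2.43, 2.55 and 2.01 at day 45 (log2 fold change 0.82 ± 0.23 SE, limma adjusted p = 0.0199) and 3.17 and 5.41 at days 100 and 200 (log2 fold change 1.46 ± 0.26 SE, limma adjusted p = 0.00123). In the knockout it was 0.960, 0.944 and 1.32, all within the day 0 range (log2 fold change 0.13 ± 0.23 SE, limma adjusted p = 0.665), while its ligand Cxcl16 was higher there. The Cxcr6 row overlaps Fyco1 on the map. Ccr7, the receptor of naive T cells and mature dendritic cells, was 0.286, 0.132 and 0.444 at day 0, 1.10, 0.967 and 1.95 at day 21 (log2 fold change 0.85 ± 0.21 SE, limma adjusted p = 0.0278), 1.15, 1.58 and 1.70 at day 45 (log2 fold change 0.94 ± 0.21 SE, limma adjusted p = 0.00541) and 2.38 and 2.23 at days 100 and 200 (log2 fold change 1.37 ± 0.23 SE, limma adjusted p = 0.000877). It was 1.41, 1.25 and 0.515 in the knockout (log2 fold change 0.65 ± 0.21 SE, limma adjusted p = 0.0292), above day 0 in every liver.

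The ligands of Ccr7 could not be followed. Ccl21a, Ccl21b and Ccl21c are near-identical to each other, and they and Ccl19 are each listed at several places (2, 2, 6 and 4 rows for Ccl19, Ccl21a, Ccl21b and Ccl21c), between which reads can be split. Ccl19 was listed at 0 in 12 libraries and at 0.746 and 7.60 FPKM in knockout A and B. Ccl21a was at or under 0.172 in the floxed livers and at 2.70 and 1.98 in the same 2 knockout livers, and Ccl21c was listed at 0 except for 2.46 in knockout B. These values are uncertain.

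**Figure D3:**
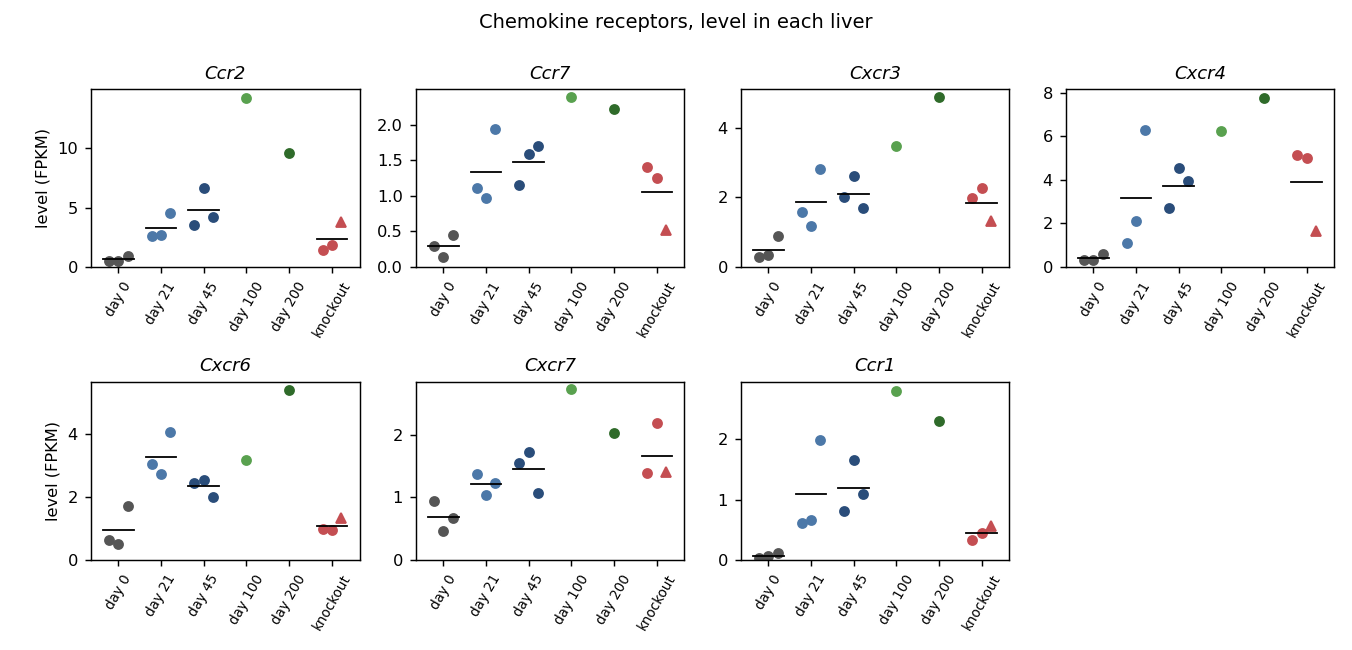
Level (FPKM, axis from 0) of 6 tested receptors and of Ccr1 in each of the 14 livers. Points are single livers, lines are means of 3 livers, and the triangle is knockout C. Ccr2 is highest at day 100 and day 200, and Cxcr6 is near the day 0 level in knockout A and B.

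Cxcl13, which attracts B cells through Cxcr5, was 4.71, 1.44 and 3.67 FPKM at day 0 and 8.18, 5.86 and 6.34 at day 45, with no overlap (log2 fold change 0.94 ± 0.30 SE, limma adjusted p = 0.0341). At day 21 it was 2.11, 3.98 and 2.23 and at days 100 and 200 3.29 and 4.23, within the day 0 range. The day 45 call was lost with libraries centred on their median and without day 0 B or any 1 of the 3 day 45 livers. Cxcr5 stayed at or under 1.02 FPKM. All 4 tested B cell markers were higher at day 45 and at days 100 and 200, with 3 at day 21 and 1 in the knockout, and sums of 2.28 to 5.72 FPKM at day 0, 10.6 to 16.4 at day 21, 12.03 to 16.0 at day 45, 10.5 to 17.1 at days 100 and 200 and 5.08 to 10.7 in the knockout. Their part was not tested.

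Ccl25, a ligand of Ccr9 known from thymus and gut, was the member called lower in the reported fit. It was 3.27, 3.58 and 2.41 FPKM at day 0, 2.36, 2.24 and 2.90 at day 21, 1.90, 1.55 and 3.11 at day 45 (log2 fold change -0.38 ± 0.19 SE, limma adjusted p = 0.168, and -0.61 with adjusted p = 0.042 with centred libraries) and 1.64 and 1.34 at days 100 and 200 (log2 fold change -0.71 ± 0.21 SE, limma adjusted p = 0.0225). In the knockout it was 0.844, 0.798 and 1.22 (log2 fold change -1.06 ± 0.19 SE, limma adjusted p = 0.00216), below every floxed liver, and this call held in all 14 fits that leave out a library. The call at days 100 and 200 was lost with the length trend removed (limma adjusted p = 0.0928). Ccr9 was not tested and stayed at or under 0.558 FPKM.

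The remaining tested ligands were called in no comparison of the reported fit. Ccl27a, a ligand of Ccr10, was 8.69, 6.79 and 8.24 FPKM at day 0 and 5.29, 2.68 and 3.01 at day 21, all lower than day 0 but past no threshold (log2 fold change -0.97 ± 0.28 SE, limma adjusted p = 0.056). All day 45 and knockout livers also lay below all day 0 livers. With libraries centred on their median it was lower at day 21 and at day 45 (limma adjusted p = 0.048 and 0.0412), and its row overlaps Il11ra1. Without knockout C it was lower at the same times (limma adjusted p = 0.0145 and 0.0404), and without knockout B at day 21 (limma adjusted p = 0.0473). With the length trend removed it was lower in the knockout (limma adjusted p = 0.0148). Ccl24, an eotaxin made by macrophages that acts on Ccr3, ranged from 2.26 to 12.9 FPKM over the 14 livers, with the highest value in knockout A. Without knockout C it was higher in the knockout than at day 0 (limma adjusted p = 0.0225). Of the other untested members, Ccl1, Ccl11, Cxcl15, Cxcl17, Ccr1l1, Ccr3, Ccr8 and Ccr10 stayed at or under 0.449 FPKM in every liver.

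Between day 21 and day 45, 0 of the 29 members passed in limma, and 0.273% of all tested genes passed as higher. An unadjusted p under 0.05 was found for 4 of the 29 members and for 1811 of the 11354 tested genes. The largest member differences were those of Ccl8 (log2 fold change -1.53 ± 0.49 SE, limma adjusted p = 0.161), Cxcl14 (log2 fold change 1.11 ± 0.52 SE, limma adjusted p = 0.324) and Cxcl13 (log2 fold change 1.07 ± 0.30 SE, limma adjusted p = 0.133). The fit with only these 2 groups and a replicate block also gave 0. Without knockout C, whose removal changes the shared spread, Ccl20 and Cxcl13 were higher at day 45 (limma adjusted p = 0.0351 and 0.0444), 2 of the 29 members, while 8.84% of all tested genes were higher in that fit.

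The knockout was also compared with day 45, where 1 member was higher and 4 lower (1.21% of all tested genes higher and 8.23% lower). Ccl17 was higher (log2 fold change 1.34 ± 0.38 SE, limma adjusted p = 0.0476). Ccl25 (log2 fold change -0.68 ± 0.19 SE, limma adjusted p = 0.0442), Ccl3 (log2 fold change -1.36 ± 0.37 SE, limma adjusted p = 0.0409) and Ccl4 (log2 fold change -1.49 ± 0.36 SE, limma adjusted p = 0.029) were among the lower. The median over all tested genes was -0.23 in this comparison, and -0.29 over the 29 members. Of these 5, none passed when only the 2 groups compared entered the fit, and in the 14 fits that leave out a library Ccl4 held in 10, Ccl3 in 3, Ccl17 in 1 and Ccl25 in 1. For Ccl4 all 3 knockout livers lay below all day 45 livers, and the same was true of Ccl3. Without knockout C the count was 10, with 3 higher and 7 lower, while 14.6% of all tested genes were higher and 37.5% lower in that fit, and with knockout C as the only knockout liver it was 1 (Cxcl1, higher).

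Many members lie side by side on the chromosomes. In mm9, the build of the table, Ccl2, Ccl7, Ccl11, Ccl12, Ccl8 and Ccl1 lie on chromosome 11 from 81849079 to 81993314, and Ccl5, Ccl9, Ccl6, Ccl3 and Ccl4 from 83339281 to 83478185. Cxcl5, Cxcl3, Cxcl15, Cxcl1 and Cxcl2 lie on chromosome 5 from 91188325 to 91334964, and Cxcl9, Cxcl10 and Cxcl11 from 92750357 to 92792303. The receptors Ccr9, Cxcr6, Ccr1, Ccr1l1, Ccr3 and Ccr2 lie on chromosome 9 from 123676329 to 124023879. In the Ccl5 group 4 of the 5 were higher at day 45, with Ccl9 between Ccl5 and Ccl6 at -0.65 ± 0.32 (log2 fold change, SE). Of all tested genes 23.7% were higher at day 45. Ccl3 and Ccl4 had day 0 means of 0.246 and 0.392 FPKM and were tested because of the later livers. In the receptor group Cxcr6 and Ccr2 had means under 1 FPKM at day 0 and were tested because of the later livers, and their neighbours named here were too low to be tested.

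**Figure D4:**
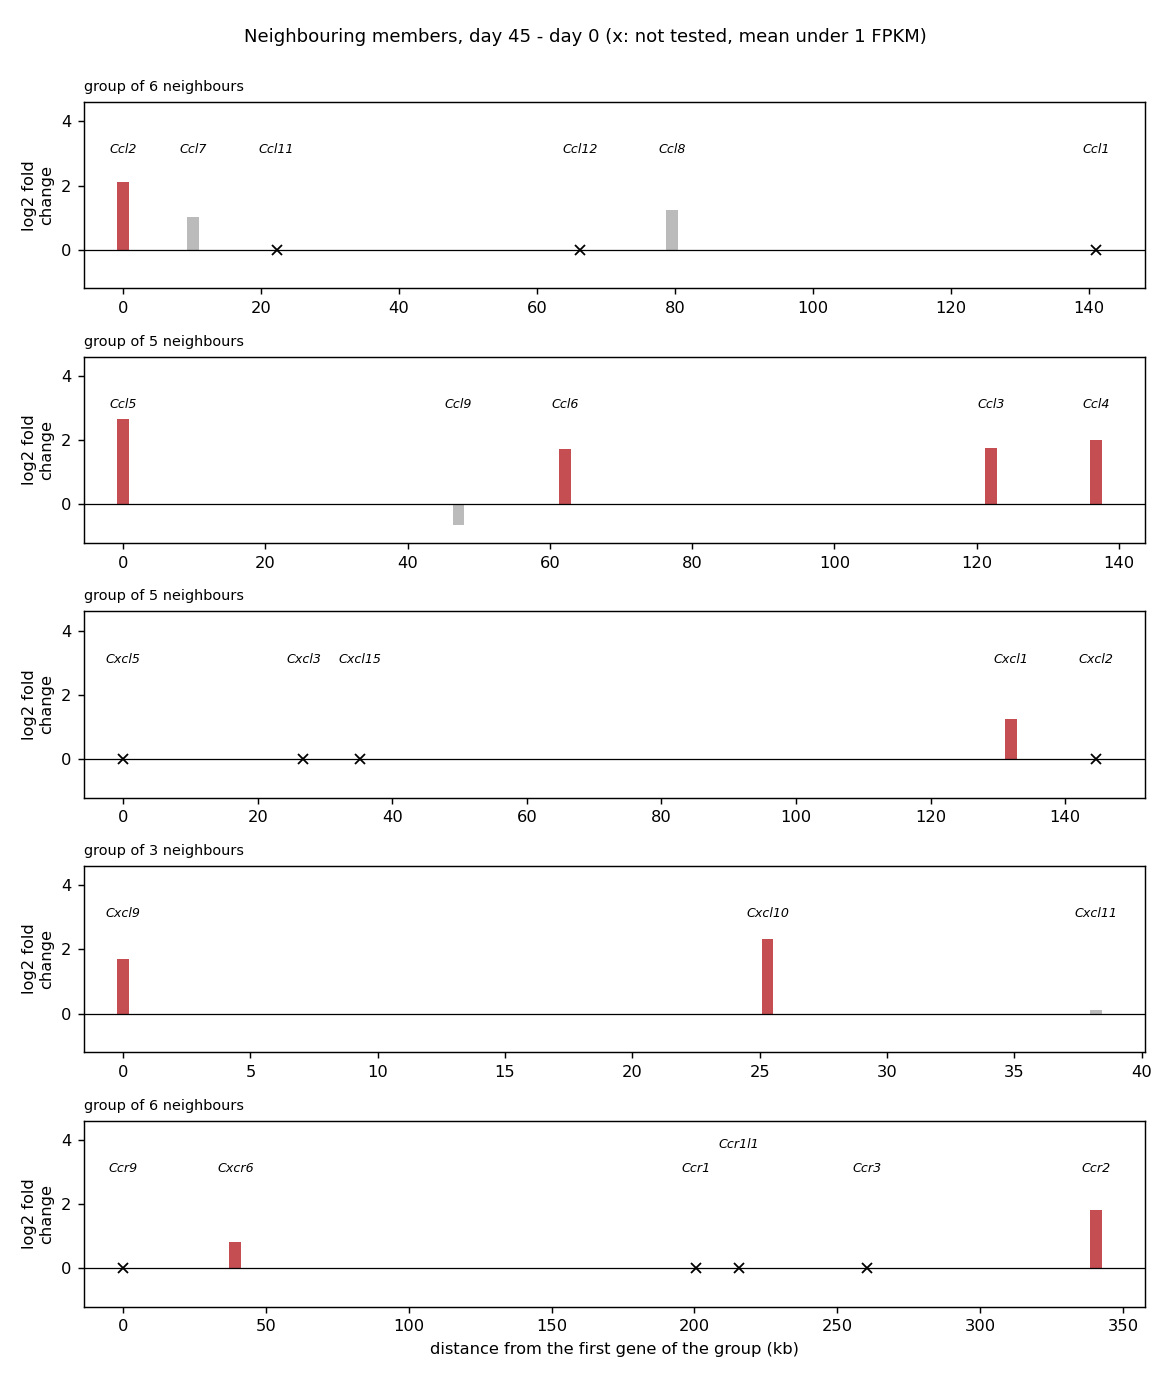
Log2 fold change between day 45 and day 0 for members that lie within 0.5 Mb of each other, against the distance from the first gene of the group (kb). Red bars passed an adjusted p of 0.05 in limma, grey bars did not, and crosses are members that were not tested. In each group members that were higher stand beside members that were not tested or did not pass.

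Other genes of the chemokine system, outside the name rule, were read from the same fit. The list of 12 holds the ligands and receptors of the XC and CX3C families, the atypical receptors and further genes. Of these, 2, 7, 6 and 7 of 10 tested were higher at day 21, at day 45, at days 100 and 200 and in the knockout, with sums of 707 to 996 FPKM at day 0, 739 to 857 at day 21, 917 to 1027 at day 45, 804 to 1467 at days 100 and 200 and 892 to 1117 in the knockout, of which Rarres2, the gene of chemerin, was 93.2 to 99.1%. Without Rarres2 the sums were 7.67 to 11.7 FPKM at day 0, 19.4 to 25.2 at day 21 and 22.4 to 41.5 at day 45. They were 50.2 to 54.9 at days 100 and 200 and 18.95 to 37.3 in the knockout. Of the chemokine receptor signalling genes (G proteins, kinases, arrestins and adaptors), 8, 15, 16 and 12 of 22 tested were higher at day 21, at day 45, at days 100 and 200 and in the knockout, with sums of 300.0 to 381 FPKM at day 0, 441 to 613 at day 21, 430.3 to 550.5 at day 45, 590.2 to 592 at days 100 and 200 and 374 to 621 in the knockout. Of the inducers of chemokine genes (cytokines, interferon and NF-κB pathway genes), 5, 11, 11 and 8 of 16 tested were higher at day 21, at day 45, at days 100 and 200 and in the knockout, with sums of 159.8 to 206 FPKM at day 0, 292 to 414 at day 21, 316 to 411 at day 45, 332 to 385 at days 100 and 200 and 231 to 389.6 in the knockout. Over all tested genes 6.2%, 23.7%, 28.4% and 19.3% were higher in the same 4 comparisons. Of the tested genes of these 3 lists, 4 of 10, 3 of 22 and 2 of 16 had a day 0 mean under 1 FPKM. They were tested because of the later livers. None of these 3 lists had a gene called lower in these comparisons with day 0. Among hepatocyte markers, 0, 1, 0 and 1 of 11 tested were higher at day 21, at day 45, at days 100 and 200 and in the knockout, with sums of 30421 to 34835 FPKM at day 0, 28112 to 35226 at day 21, 23330.4 to 29969.6 at day 45, 17397 to 25076 at days 100 and 200 and 33797 to 39546 in the knockout, and 1 was lower at days 100 and 200 and 1 in the knockout. Trf and Serpina1c, listed at 0 in most livers and at high levels in others, enter these sums. Without them the sums were 28556 to 30861 FPKM at day 0, 27383 to 28864 at day 21, 23330.4 to 29969.6 at day 45, 16537 to 25076 at days 100 and 200 and 26930.1 to 31696 in the knockout, and the 1 marker higher in the knockout is Serpina1c. Of 4 tested red cell markers 0 passed in any of these comparisons, but their sum was 839 and 673 FPKM in knockout A and B against 175 in knockout C and 71.0 to 239 in the floxed livers. Within the knockout it was lowest in knockout C, as some members were. Divided by the day 0 mean, the sum was 0.522, 0.868 and 1.13 at day 45 and 0.843 and 1.07 at days 100 and 200. Hba-a1 was 0.0516 to 65.3% of the sum. The part of red cells in the levels of the members was not tested.

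**Figure D5:**
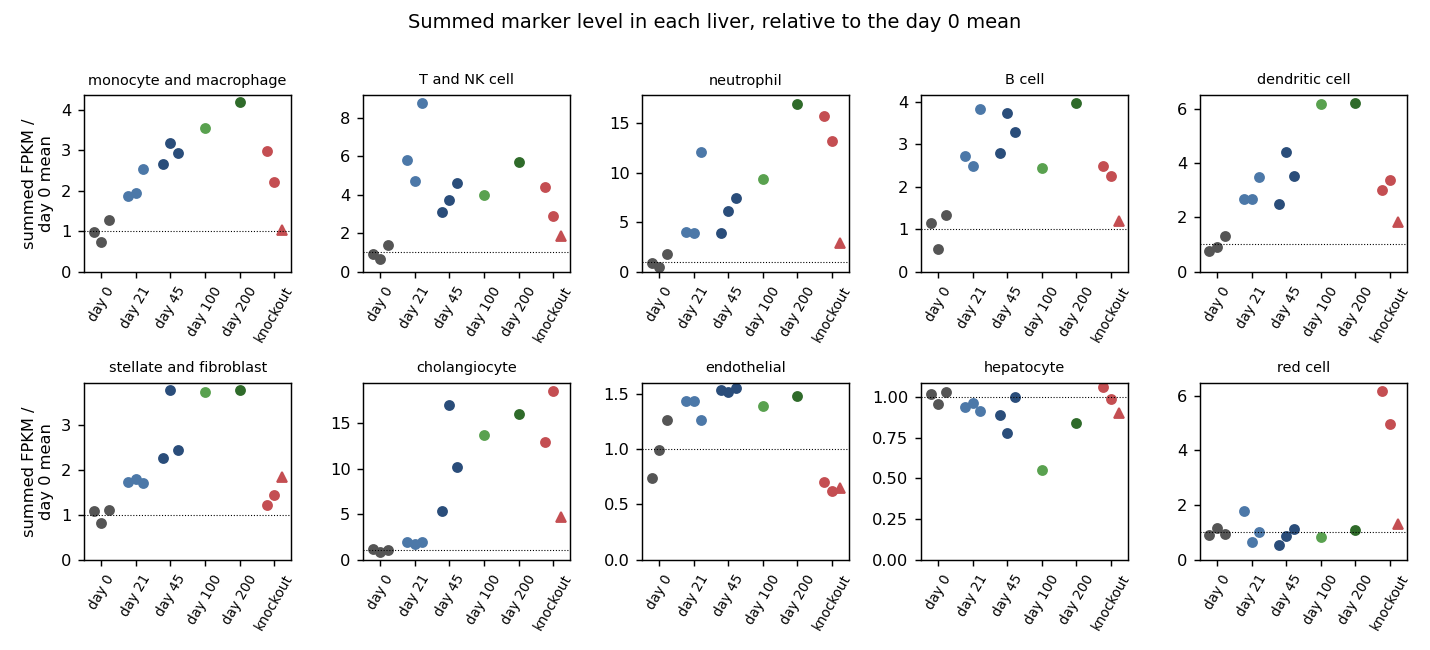
Summed FPKM of 10 marker lists in each of the 14 livers, without Spp1, Bst2, Trf and Serpina1c, divided by the mean of the 3 day 0 livers (dotted line at 1). Each axis starts at 0, points are single livers and the triangle is knockout C. Cholangiocyte markers are higher in every day 45, day 100, day 200 and knockout liver than in any day 0 or day 21 liver, and most leukocyte lists are lower in knockout C than in knockout A and B.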

How the data were processed

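RNA-seq of 14 mouse livers was used, with 11 small RNA libraries matched to the floxed livers by day and replicate label. Paired poly-A reads were mapped by the authors to mm9 with TopHat, and the deposited FPKM come from Cufflinks 2.2.1 with upper quartile scaling, after removal of ribosomal, small nucleolar and mitochondrial sequences. The strand setting is not stated. For small RNA, the authors aligned reads with Bowtie 0.12.7, and the deposited RPM have 1 added, which was removed before shares were taken. Because FPKM are not counts, a count model was not used.

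The members and all gene lists were chosen with earlier results of these data known. Rows of 1 symbol were summed. 1 member enters the fit, the counts and the sums but is not reported here. limma 3.58.1 in R 4.3.3 (lmFit on 5 group means, contrasts, eBayes with trend) was run on log2(FPKM + 1) of the 11354 symbols with a mean of at least 1 FPKM, with Benjamini-Hochberg adjustment over all of them in each of 6 comparisons and a threshold of 0.05. Each mouse is 1 library, but nothing says that mice of a group came from separate litters or extraction days, so p-values cover the spread between these livers. Members named with values were those called in at least 1 comparison, the 6 ligands and 4 receptors with the highest means, and the partners of called members; at most 30 were to have all their values. Untested members named besides these were chosen after their values were seen. On simulated data the fit was tested for recovery of known changes.

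Depth is not given with FPKM. It was estimated from the step between low values of 2710 genes with 1 annotated transcript, assuming fragments of 180 bases, as the depth that makes the largest share of values whole to within 0.1 of a fragment (37.6 to 49.1% of low values, against 14.8 to 20.2% at the median depth tried), so it is an estimate only and counts were not recovered. Transcript lengths are the longest transcript in GENCODE M1 on the same build. Promoters are RefSeq (GRCm38.p6) and were matched by symbol for 38 of 55 members, and their coordinates are not on the build of the table.

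Mice carry letters A to C in each group. Over all tested genes the deviations of same-letter livers from their group means correlated at 0.272, 0.236 and 0.501 between day 21 and day 45, and in no other pair of groups were all 3 above 0.1, so the letters were read as pairing days 21 and 45 only. The paired fit, with the replicate block, called 0 members there, as the fit without it did. The alternatives tried were other pseudocounts (0.1 and 0.5), a lower filter (0.1 FPKM) and none, centring, only the groups compared, days 100 and 200 apart, unsummed rows, a replicate block and leaving out each library. Removing a length trend (lowess) from each library, keeping knockout C alone, and a block on days 21 and 45 alone were added after the data were seen.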

Additional observations from a re-analysis of the deposited data

Results flagged for a closer look

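Members among those that differed between the knockout and day 45, by a direct test of the difference in the fit of all 5 groups, are given here as values. Ccl17 was higher in the knockout by a log2 fold change of 1.34 (limma adjusted p = 0.0476). Ccl25 was lower, at -0.68 (limma adjusted p = 0.0442), Ccl3 at -1.36 (0.0409) and Ccl4 at -1.49 (0.029). In the 14 fits that leave out a library Ccl4 held in 10, Ccl3 in 3, Ccl17 in 1 and Ccl25 in 1, and each was lost with a replicate block and with only the groups compared. The call of Ccl17 was also lost with a pseudocount of 0.1, with no filter on low values and with the length trend removed (limma adjusted p = 0.0653). Those of Ccl25 and Ccl3 were also lost with no filter, and those of Ccl25, Ccl3 and Ccl4 with centred libraries. Those of Ccl17, Ccl25 and Ccl3 were lost with days 100 and 200 as groups of their own. Over all tested genes the median of this comparison was -0.23. Without knockout C the differences were 1.86 for Ccl17, -0.78 for Ccl25, -1.24 for Ccl3 and -1.33 for Ccl4, and all 4 passed. With knockout C as the only knockout liver the same differences were 0.29 for Ccl17, -0.49 for Ccl25, -1.61 for Ccl3 and -1.82 for Ccl4 (limma adjusted p = 0.726, 0.336, 0.13 and 0.0737). In that fit the lone liver is assumed to vary like the other groups, so that a missed threshold there says nothing about stability. No group holds more than 3 livers, so single livers were not screened for outlying values.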

How the results depend on the processing

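Of 1919 values of single called members under the alternatives, 1639 kept their direction and passed the threshold, 280 kept their direction without passing, and 0 turned. The number of members called stayed within 1.5 times the reported one in all fits but the following. The knockout against day 45 gave 2 with no filter on low values (1.13% of all genes higher, 6.01% lower), 3 with centred libraries (1.64%, 1.93%), 2 with days 100 and 200 as groups of their own (0.828%, 5.39%), 1 with a replicate block (0.652%, 3.29%), 0 with only the groups compared (0.185%, 0.37%) and 1 with knockout C as the only knockout liver (0.405%, 2.2%), where 5 were reported (1.21%, 8.23%). The knockout against day 0 gave 9 with only the groups compared (7.31%, 2.46%) and 3 with knockout C alone (4.03%, 1.88%), where 17 were reported (19.3%, 14.5%). Knockout C alone was an alternative chosen after seeing the data. Days 100 and 200 gave 36 of 52 members with no filter (23 reported; 30.3% of all genes higher in that fit), and day 21 gave 9 with a replicate block (14 reported; 3.39% of all genes higher), where the letters do not pair the livers. Leaving out each library in turn gave 4 to 19 at day 21, 14 to 23 at day 45, 14 to 24 at days 100 and 200, 9 to 17 in the knockout, 0 to 2 for day 45 against day 21 and 0 to 10 for the knockout against day 45. The lowest came without day 0 B or day 21 C at day 21, without day 100 for days 100 and 200, without day 0 B or knockout B for the knockout against day 0, and without day 45 A, day 45 B or knockout B for the knockout against day 45. The 10 came without knockout C, where 14.6% of all tested genes were higher and 37.5% lower. That fit also gave 19 at day 21 (12.6% of all tested genes higher, 5.46% lower) and 23 at day 45 (32.8%, 6.18%). It gave 2 for day 45 against day 21 (8.84%, 0.396%). The 24 at days 100 and 200 came without day 21 C (27%, 3%). The replicate block could not be fitted for days 100 and 200, which hold 1 mouse each. Centring moved the split of higher calls among all genes in the knockout against day 45 from 12.8% to 45.9%. The cause was not tested, beyond the fewer libraries or larger sets of genes that the alternatives themselves bring. Depth sets a floor under the low members, for which 1 fragment can be a large part of the value.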

Other observations

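Several members were too low to be tested but had values in the fit without a filter on low values, in which every symbol with a value above 0 entered. Of all genes in that fit 3.94% were higher at day 21, 22% at day 45, 30.3% at days 100 and 200 and 15.4% in the knockout. There, Ccr1, a receptor of myeloid cells, was higher in the floxed livers at all times after Cre, with log2 fold changes of 0.91 at day 21, 1.02 at day 45 and 1.73 for days 100 and 200. Cxcr2, the neutrophil receptor, was higher in the same comparisons (0.59, 0.61 and 0.95) and in the knockout (0.52). Ccl12 was higher at day 45 and at days 100 and 200 (0.84 and 1.06), as were Cxcl5 (0.60 and 0.74), Cxcr5 (0.37 and 0.53) and Ccr9 (0.36 and 0.30). Ccr6, Ccr8, Ccr3, Ccr4, Ccr10, Ccr1l1 and Cxcl17 passed at days 100 and 200, by 0.14 to 0.55, and in no other comparison with day 0, though whether the times differ was not tested and Ccr8 lay above all day 0 livers in every later liver. Ccl21a was higher in the knockout (1.13), but reads can be split between it and near-identical copies. On the log2(FPKM + 1) scale the change of values this low is understated, and these members were named after their values were seen.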
